A study of Homo sapiens with 15 samples.

Results

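The genes of N-glycan trimming and branching were followed in MDA-MB-231 cells after exposure to ZJ-101, a truncated synthetic version of superstolide A, which was isolated from a marine sponge. The group holds the 10 genes MOGS, GANAB, PRKCSH, UGGT1, MAN1A1, MAN1A2, MAN1B1, MAN2A1, MGAT1 and MGAT2, which were found by symbol among the 59608 genes of the series. All 10 had a value in each library, and all 10 were among the 13561 genes tested, which are those with a mean normalized count of at least 10. MDA-MB-231 is a triple-negative human breast cancer line that was grown here in 2D culture, and each of the 15 libraries came from a separate dish. Dishes received 0.1% DMSO as the vehicle control or 0.5, 5, 50 or 500 nM ZJ-101 for 6 h, with 3 dishes per group. The same comparison was made for each dose, and it asks how the level of each transcript differed from that of the shared DMSO dishes.

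N-glycans are built on a lipid, transferred as one block to asparagine residues of proteins entering the endoplasmic reticulum (ER), and then trimmed. Glucosidase I (MOGS) and glucosidase II (GANAB with PRKCSH) remove the glucose residues, UGGT1 puts a glucose back on proteins that have not folded, and mannosidases (MAN1A1, MAN1A2, MAN1B1) cut away mannose. In the Golgi, MGAT1 adds the GlcNAc that starts the conversion to hybrid and complex glycans, MAN2A1 trims further mannose, and MGAT2 adds the GlcNAc of the next branch. These enzymes act one after another on the same sugar chain, and most of them are made in nearly every cell type.

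Libraries held between 12415519 and 15284762 reads on genes. Normalized counts are read counts divided by a size factor of the library, and they describe a transcript relative to the others. The amount of RNA per cell and the number of cells cannot be read from them. Of the markers of the line, VIM, CD44, EGFR and CAV1 were detected, ESR1 had a mean of 0.744 and PGR of 13.7, and the leukocyte gene PTPRC had a mean of 1.43. The epithelial genes CDH1 (147) and EPCAM (290), the luminal gene GATA3 (145) and the endothelial gene PECAM1 (251) were not near 0. EGFR rose at 50 nM (log2 fold change 0.52) and 500 nM (0.71), and CD44 fell at these doses (-0.29 and -0.38). CDH1 fell at 0.5 nM (-0.79), 5 nM (-0.66) and 500 nM (-0.54) and measured -0.24 at 50 nM, which did not pass. The part of these markers in the results was not tested. Replicate 2 of 0.5 nM stood apart from the other libraries. The root mean square of its deviations from its group mean was 0.213 on the log2 scale against 0.159 to 0.194, and its deviations correlated with log2 transcript length at r = -0.445 across genes against -0.171 to 0.297 in the others. The upper end of both ranges came from 0.5 nM replicate 3, whose deviations are taken from the same group mean. In 0.5 nM replicate 2, UGGT1, MAN1A1, MAN1A2, MAN2A1 and GANAB were lowest of their group, and PRKCSH, MAN1B1 and MGAT1 were highest. Counts of calls at each dose are given below with and without this library.

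The genes lie apart in the genome (hg38, GENCODE release 44). MOGS is at chr2:74461057-74465410 on the minus strand, GANAB at chr11:62624826-62646726 on the minus strand, PRKCSH at chr19:11435284-11450968 on the plus strand and UGGT1 at chr2:128091200-128195677 on the plus strand. Of the mannosidases, MAN1A1 is at chr6:119177205-119349761 (minus), MAN1A2 at chr1:117367449-117528872 (plus), MAN1B1 at chr9:137086857-137109189 (plus) and MAN2A1 at chr5:109689927-109869625 (plus). MGAT1 is at chr5:180784780-180815652 (minus) and MGAT2 at chr14:49620799-49623481 (plus). MGAT2 has 1 exon, and an antisense lncRNA covers 92.0% of its exon bases. Whether reads were counted by strand is not given in the sources used here, so reads of MGAT2 and of this antisense RNA cannot be told apart. Whether reads in the overlap were counted or left out is not given either. For the other genes at most 3.44% of exon bases lie in another gene, and 0 of the 10 had a near-identical gene or a copy on an alternate contig.

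Upstream sequence is shown for MAN1A1, which fell with dose, and for MAN2A1, which passed no test in that direction, because both windows end where the annotated gene begins. They are the 250 bases before the RefSeq start (GRCh38.p14), read in the direction of the gene. Capitals mark a match to any of the motifs searched other than the GC box.
MAN1A1, chr6:119349762-119350011, minus strand: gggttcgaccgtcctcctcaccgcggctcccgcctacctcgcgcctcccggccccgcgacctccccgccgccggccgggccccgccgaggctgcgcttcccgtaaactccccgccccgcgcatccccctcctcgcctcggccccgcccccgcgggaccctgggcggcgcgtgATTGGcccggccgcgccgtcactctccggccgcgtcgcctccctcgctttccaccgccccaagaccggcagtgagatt
MAN2A1, chr5:109689677-109689926, plus strand: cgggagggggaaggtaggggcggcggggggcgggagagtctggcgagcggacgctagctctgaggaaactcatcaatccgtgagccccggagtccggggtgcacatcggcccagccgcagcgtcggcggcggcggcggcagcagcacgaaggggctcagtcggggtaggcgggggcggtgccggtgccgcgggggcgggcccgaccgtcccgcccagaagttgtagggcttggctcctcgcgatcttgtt
The capitals in MAN1A1 are a CCAAT box (CCAAT) on the opposite strand, and MAN2A1 had no match in capitals. Of the 10 genes, 8 had an entry, and MOGS and MAN1A2 did not. Each motif was searched on both strands. The ER stress response element ERSE (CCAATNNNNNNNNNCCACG) and its shorter variant ERSE-II were in 0 of the 8 genes and in 0.0741% and 0.0513% of the 35093 promoters of that length, and the ERSE letters include a CCAAT box. Some genes have several starts, so the other motifs are counted over the 15 starts of the 8 genes, beside the share of all single promoters. The core ACGTGG of the unfolded protein response element was at 2 of 15 starts, 1 each in GANAB and MGAT1 (8.37% of all promoters). A heat shock element (GAANNTTCNNGAA) was at 2 of 15 starts (0.442% of all promoters). Both are starts of PRKCSH with windows that overlap, and the match is 1 site counted in each. The cyclic AMP response element (TGACGTCA) and TATAAA were at 0 of 15 starts (1.65% and 10.7% of all). CCAAT was at 4 of 15 starts (32% of all), and the GC box GGGCGG at 11 of 15 (42.6% of all). A match describes these letters only and is not a measured site.

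Per kb of the canonical transcript, the levels in DMSO ran over a wide range. GANAB was highest with 2724 ± 24.7 normalized counts per kb (SD, n = 3), followed by PRKCSH with 2594 ± 41.4 and MAN1B1 with 652 ± 31.3. MOGS (483 ± 37.1) and MAN2A1 (478 ± 11.7) came next, and their libraries overlapped. Then came MGAT1 (281 ± 6.63), UGGT1 (192 ± 3.40), MAN1A1 (158 ± 4.90) and MAN1A2 (95.8 ± 4.32), and MGAT2 was lowest with 11.3 ± 2.03. Apart from MOGS and MAN2A1, the 3 DMSO libraries of each neighbouring pair did not overlap. The canonical length may not be that of the transcripts made in these cells, which were not measured. For MGAT2, 92.0% of that length lies under an antisense lncRNA. How reads there were counted is not given, so its place may not be that of its mRNA.

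**Figure D1:**
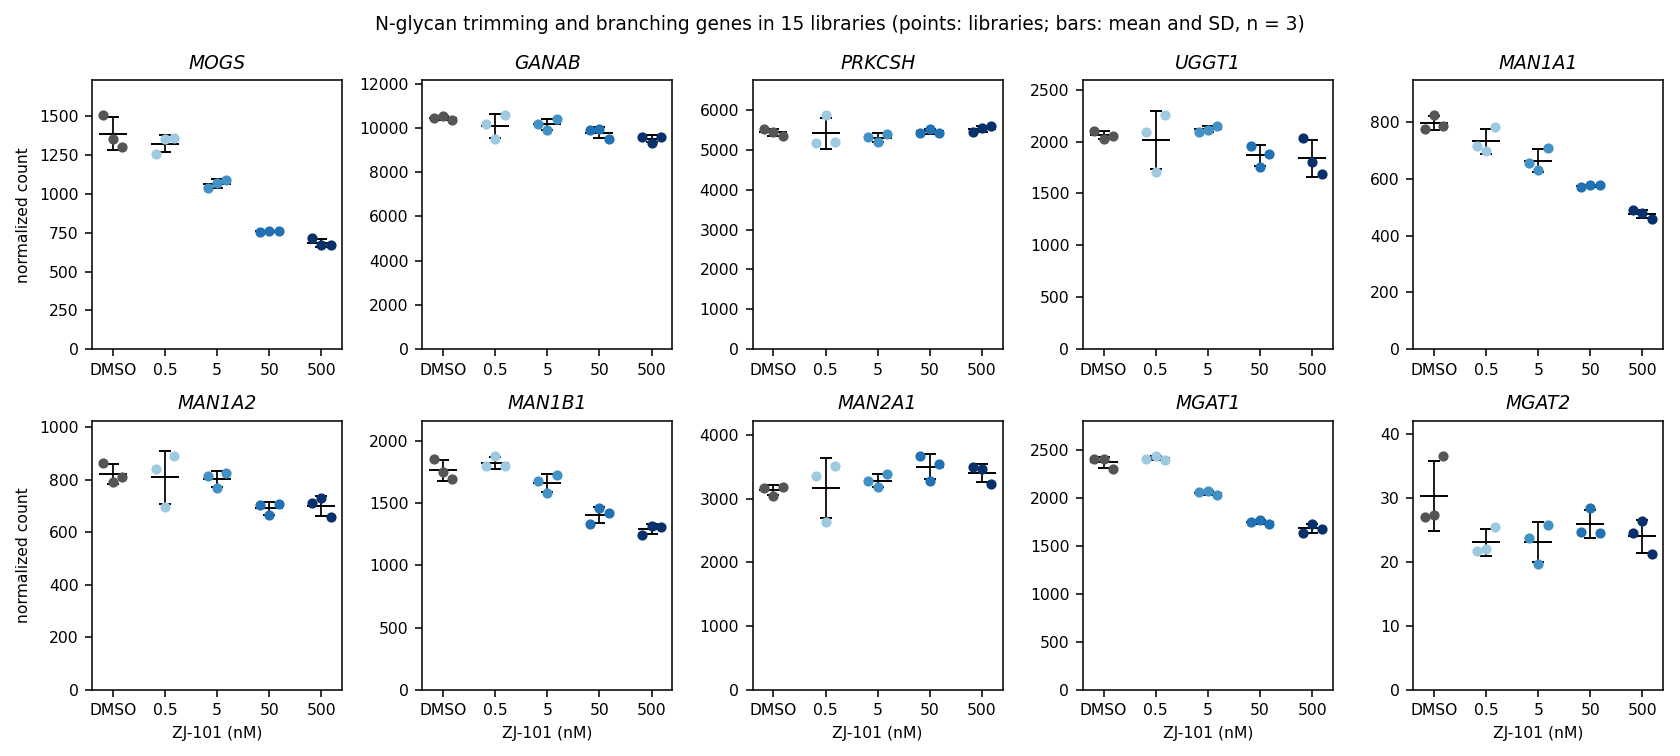
Normalized counts (y axis, from 0) of the 10 genes in DMSO and at 4 doses of ZJ-101 (x axis, nM). Points are libraries, and bars are the mean and SD of 3 libraries. MOGS, MAN1A1, MAN1B1 and MGAT1 step down with dose, while PRKCSH stays near its DMSO level and 0.5 nM replicate 2 departs from its group for UGGT1, MAN1A2 and MAN2A1.

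The glucosidase genes differed in their response. MOGS, whose enzyme removes the outermost glucose and so opens the trimming, fell most of the 10 genes. Its normalized counts were 1505, 1352 and 1301 in the DMSO dishes, 1258, 1352 and 1361 at 0.5 nM, 1038, 1069 and 1091 at 5 nM, 758, 761 and 758 at 50 nM, and 714, 671 and 669 at 500 nM. The groups at 5, 50 and 500 nM lay below DMSO without overlap, and the mean was 76.9% of DMSO at 5 nM and 49.4% at 500 nM. The log2 fold change was -0.38 ± 0.055 at 5 nM (SE, limma adjusted p = 0.000971), -0.87 at 50 nM (limma adjusted p = 5.16e-09) and -1.01 ± 0.055 at 500 nM (limma adjusted p = 2.61e-10, n = 3 per group). By p, it was 23rd of all genes tested at 500 nM and 5th for the slope on dose.

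GANAB encodes the catalytic subunit of glucosidase II. Its values were 10434, 10548 and 10360 in DMSO, and 9614, 9324 and 9587 at 500 nM, with no overlap. This is 91% of the DMSO mean. The log2 fold change of -0.14 (95% interval -0.23 to -0.05) passed the test at 500 nM (limma adjusted p = 0.0316). The call was lost with no filter on low genes and without any 1 of the DMSO or 500 nM libraries (limma adjusted p from 0.0624 to 0.119). Its partner PRKCSH, the noncatalytic subunit that holds the enzyme in the ER, measured 5515, 5454 and 5344 in DMSO and 5436, 5545 and 5593 at 500 nM. These groups overlapped. The log2 difference was 0.02 with a 95% interval of -0.07 to 0.12, which does not reach the falls of MOGS.

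UGGT1 reglucosylates unfolded glycoproteins and so returns them to calnexin and calreticulin. Its normalized counts were 2101, 2028 and 2054 in DMSO, 1958, 1760 and 1879 at 50 nM, and 2031, 1798 and 1683 at 500 nM. Replicate 1 of 500 nM lay within the DMSO range and the other two below it. The log2 difference of -0.17 at 500 nM (95% interval -0.34 to -0.002) did not pass the test over all genes (limma adjusted p = 0.164). At 0.5 nM the values were 2091, 1705 and 2252, the lowest in replicate 2. Without that library UGGT1 passed at 500 nM (limma adjusted p = 0.0301) and for the slope (limma adjusted p = 0.0182).

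Of the 4 mannosidase genes of the group, MAN1A1 had the largest fall. It encodes Golgi mannosidase IA, which trims mannose on the way to complex glycans. The counts were 776, 822 and 786 in DMSO, 714, 697 and 782 at 0.5 nM, 654, 629 and 708 at 5 nM, 572, 577 and 577 at 50 nM, and 488, 479 and 459 at 500 nM. All libraries from 5 nM on were below all of DMSO, with no overlap between 5 and 50 nM or between 50 and 500 nM. The log2 fold change was -0.26 at 5 nM (limma adjusted p = 0.0220), -0.47 at 50 nM (limma adjusted p = 2.72e-05) and -0.74 ± 0.058 at 500 nM (SE, limma adjusted p = 2.92e-08). The call at 5 nM was lost without any 1 of the DMSO libraries, without 5 nM replicate 1 and without 5 nM replicate 2 (limma adjusted p from 0.0684 to 0.14).

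Its paralogue MAN1A2 encodes Golgi mannosidase IB. It measured 863, 791 and 812 in DMSO, 703, 664 and 708 at 50 nM, and 711, 728 and 656 at 500 nM. Both groups lay below DMSO. The log2 fold change was -0.25 at 50 nM, which missed the threshold (limma adjusted p = 0.0567), and -0.23 at 500 nM, which passed it (limma adjusted p = 0.0347). At 500 nM the call was lost with no filter, without any 1 of the DMSO libraries and without 500 nM replicate 1 or 3 (limma adjusted p from 0.0518 to 0.151). At 50 nM it was gained without 0.5 nM replicate 2 (limma adjusted p = 0.00405) or replicate 3 (limma adjusted p = 0.0295), with only the 6 libraries of that dose and DMSO (limma adjusted p = 0.00865), with the replicate number as a block (limma adjusted p = 0.0384) and in DESeq2 (adjusted p = 0.0381).

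MAN1B1 encodes the mannosidase that trims the middle branch and marks misfolded glycoproteins for disposal. Counts were 1857, 1746 and 1690 in DMSO, 1798, 1879 and 1797 at 0.5 nM, 1678, 1583 and 1729 at 5 nM, 1332, 1457 and 1423 at 50 nM, and 1242, 1319 and 1305 at 500 nM. The 2 lower doses overlapped DMSO, and the 2 higher doses lay below it. MAN1B1 fell by 0.33 on the log2 scale at 50 nM (limma adjusted p = 0.000252) and by 0.45 at 500 nM (SE 0.050, limma adjusted p = 2.86e-06).

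MAN2A1 encodes Golgi mannosidase II, which acts after MGAT1. Its counts were 3167, 3044 and 3184 in DMSO, 3347, 2633 and 3518 at 0.5 nM, 3669, 3279 and 3549 at 50 nM, and 3491, 3470 and 3231 at 500 nM. The libraries at 50 and 500 nM were above those of DMSO by small margins. The log2 difference was 0.16 at 50 nM (limma adjusted p = 0.296) and 0.12 at 500 nM (95% interval -0.04 to 0.28, limma adjusted p = 0.341), and neither passed. It passed as higher at 50 nM without 0.5 nM replicate 2 (limma adjusted p = 0.0267), and when only the 6 libraries of the dose and DMSO were fitted (limma adjusted p = 0.0397 at 50 nM and 0.0365 at 500 nM).

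MGAT1 opens the branching, since no hybrid or complex glycan forms without the GlcNAc that it adds. Its values were 2403, 2405 and 2307 in DMSO, 2410, 2441 and 2402 at 0.5 nM, 2063, 2076 and 2032 at 5 nM, 1751, 1772 and 1728 at 50 nM, and 1641, 1732 and 1676 at 500 nM. Replicates were close, with a coefficient of variation of at most 2.74% in a group, and from 5 nM on no library reached the DMSO range. The log2 fold change was -0.21 at 5 nM (limma adjusted p = 0.00703), -0.44 at 50 nM (limma adjusted p = 2.89e-07) and -0.49 ± 0.038 at 500 nM (SE, limma adjusted p = 2.23e-08). MGAT2, which adds the GlcNAc of the next branch, was low. It had 26.9, 27.3 and 36.5 normalized counts in DMSO and 24.5, 26.3 and 21.2 at 500 nM. Summed over 3 libraries these were 91 reads in DMSO (exact Poisson interval 73.3 to 112) and 74 at 500 nM (58.1 to 92.9), intervals that cover counting error only. The log2 difference at 500 nM was -0.31 with a 95% interval of -0.73 to 0.10, so a change of the size seen in MGAT1 was not detectable with so few reads. Reads of the antisense RNA may be among these, and reads of MGAT2 in the overlap may have been left out.

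**Figure D2:**
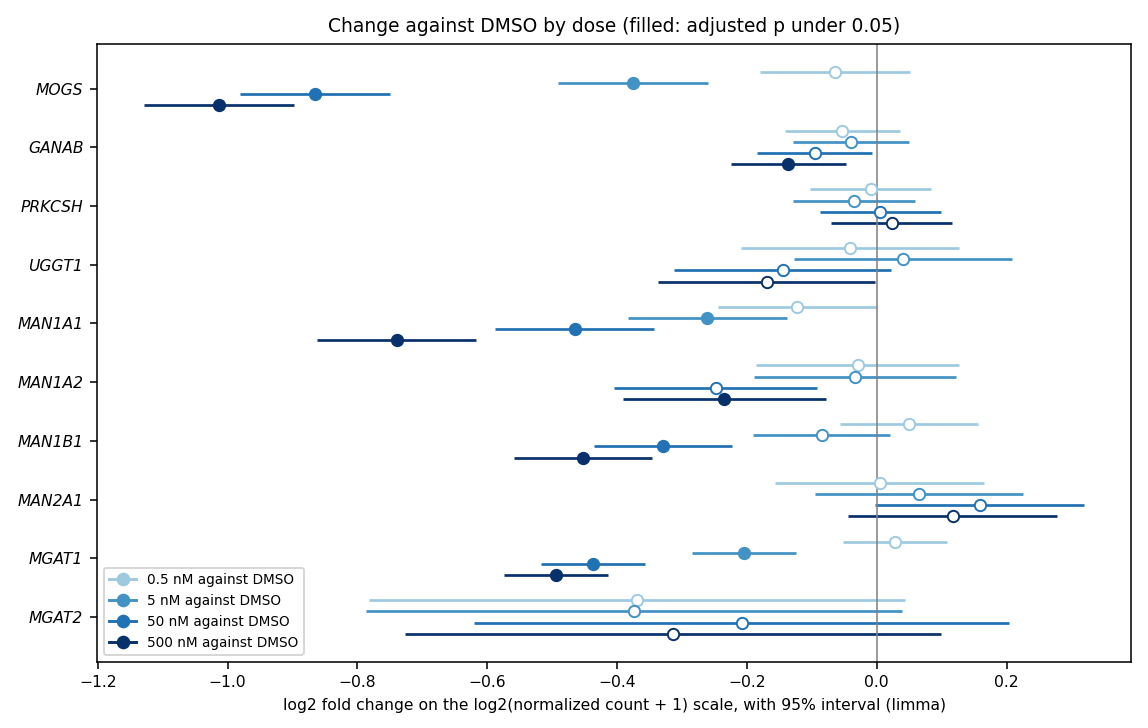
Log2 fold change against DMSO (x axis, log2(normalized count + 1) scale) of the 10 genes (y axis) at 4 doses, with 95% intervals from limma. Filled circles passed an adjusted p of 0.05. The number filled is 0 at 0.5 nM, 3 at 5 nM, 4 at 50 nM and 6 at 500 nM, and each filled circle is below 0.

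Counted over the group, no gene passed at 0.5 nM, where 0.251% of all tested genes rose and 0.922% fell. The count at that dose was 0 with limma, edgeR and DESeq2 alike, and 0 genes had an unadjusted limma p under 0.05. At 5 nM 3 of the 10 genes fell (MOGS, MAN1A1 and MGAT1) and 0 rose, against 1.71% falling and 0.465% rising among all tested genes. At 50 nM the same 3 and MAN1B1 fell and 0 rose, against 3.71% and 2.29%. At 500 nM 6 fell (GANAB and MAN1A2 in addition) and 0 rose, while 10.1% of all tested genes fell and 7.69% rose. Without 0.5 nM replicate 2 the counts of genes that fell were 0, 3, 5 and 7 from the lowest to the highest dose, and 1 gene, MAN2A1, rose at 50 nM. The median log2 fold change of the 10 genes was -0.04, -0.06, -0.23 and -0.27 in the order of dose, and that of all tested genes lay between -0.00685 and 0.00266 at the 4 doses.

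Separation of the libraries was counted as well, in either direction. At 0.5 nM 1 of the 10 genes (MGAT2) did not overlap DMSO, against 18.1% of all tested genes. The count was 4 at 5 nM (background 23.2%), 8 at 50 nM (24.8%) and 8 at 500 nM (38.5%). MGAT2, with few reads, was among those at 5 and 500 nM. Of the 8 at 50 nM, MAN2A1 was the one above DMSO, and this held at 500 nM as well.

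The dose dependence was tested as a slope of the log2 value on the rank of the dose, with DMSO as the lowest rank. The slope was negative and passed in 6 of the 10 genes and in 9.33% of all tested genes, and it was positive and passed in 0 of the 10 and in 8.23% of all. MOGS had the steepest slope, -0.28 ± 0.019 per rank (SE, limma adjusted p = 1.01e-08), followed by MAN1A1 (-0.18), MGAT1 (-0.15), MAN1B1 (-0.13), MAN1A2 (-0.07) and GANAB (-0.03). GANAB lost the call in 9 of 25 alternatives, the slope over the 12 treated libraries among them (limma adjusted p = 0.177). Leaving out replicate 1 or 2 of DMSO, replicate 3 of 0.5 nM, replicate 3 of 50 nM or any 1 library of 500 nM ended it as well (limma adjusted p from 0.0544 to 0.101).

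Neighbouring doses were compared to see where the falls took place. From 0.5 to 5 nM MOGS (-0.31, limma adjusted p = 0.0210) and MGAT1 (-0.23, limma adjusted p = 0.0114) fell, which is 2 of the 10 genes against 0.0885% of all tested, while 0.0295% of all rose. Both calls were lost without any 1 of the 5 nM libraries, and that of MOGS also without 0.5 nM replicate 3. From 5 to 50 nM MOGS (-0.49), MAN1B1 (-0.24) and MGAT1 (-0.23) fell, 3 of the 10 against 2.39% of all falling and 2.62% rising. MAN1A1 missed narrowly in this step (-0.20, limma adjusted p = 0.0502), and without 0.5 nM replicate 2 it passed, as did MAN1A2 and UGGT1, for a count of 6. From 50 to 500 nM 1 gene fell, MAN1A1 (-0.27, limma adjusted p = 0.0149), against 1.80% of all falling and 0.479% rising. That call was lost without 50 nM replicate 2, 500 nM replicate 2 or 500 nM replicate 3 (limma adjusted p from 0.0515 to 0.0902). MOGS (-0.15, limma adjusted p = 0.229) and MGAT1 (-0.06, limma adjusted p = 0.570) did not pass in this last step.

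Ratios within a library compare partner genes counted in that same library. With 3 dishes against 3, the two-sided exact permutation test cannot give a p below 0.1, and over the 12 comparisons the lowest adjusted p was 0.2, so none could pass. The log2 ratio of the glucosidase II subunits, GANAB over PRKCSH, was 0.94 ± 0.019 in DMSO (SD, n = 3) and 0.78 ± 0.037 at 500 nM, a difference of -0.16 with no overlap (exact permutation p = 0.1). In 0.5 nM replicate 2 this ratio was 0.69, below the other 14 libraries. For the paralogues MAN1A1 over MAN1A2 the log2 ratio was -0.05 ± 0.105 in DMSO and -0.55 ± 0.045 at 500 nM (difference -0.51, exact permutation p = 0.1). In linear terms MAN1A1 had 0.899, 1.04 and 0.969 times the counts of MAN1A2 in the DMSO dishes and 0.686, 0.658 and 0.700 times at 500 nM. The ratio was lower than in DMSO at 5 nM (-0.23) and 50 nM (-0.22) too, again with no overlap and an exact permutation p = 0.1. GANAB over PRKCSH was lower at 50 nM too (-0.10, no overlap, exact permutation p = 0.1). MGAT2 over MGAT1 differed by -0.41 at 0.5 nM with no overlap (exact permutation p = 0.1), and by 0.17 at 500 nM with overlapping libraries (exact permutation p = 0.4).

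**Figure D3:**
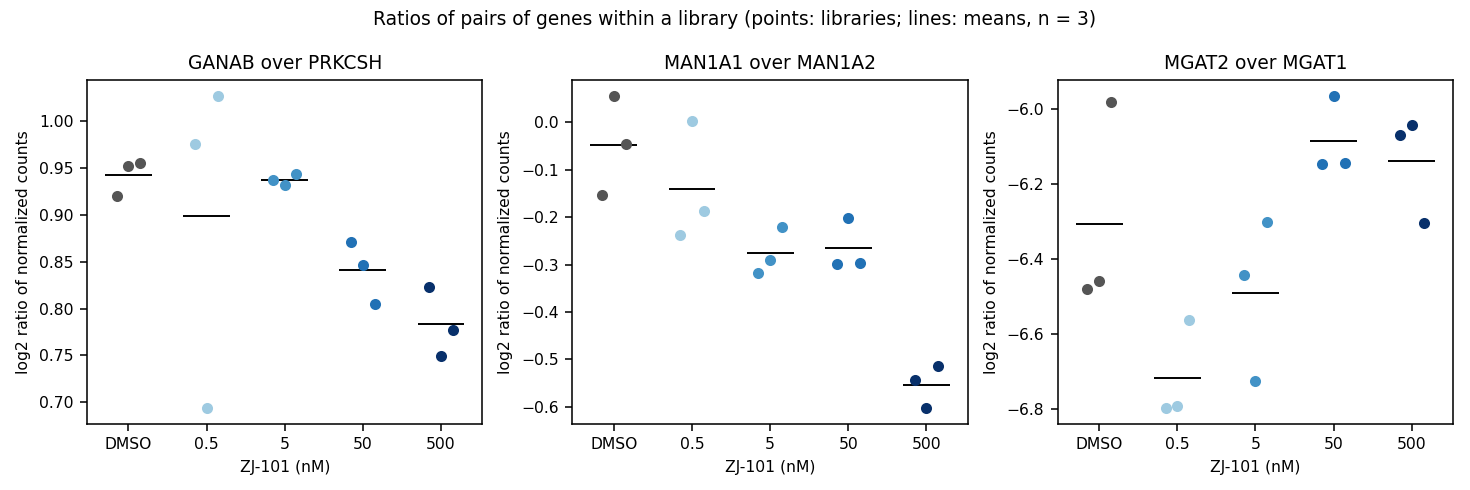
Log2 ratio of the normalized counts of a pair of genes in the same library (y axis, not starting at 0) by dose (x axis, nM). Points are libraries and lines are means of 3. The ratio MAN1A1 over MAN1A2 steps down from -0.05 in DMSO to -0.55 at 500 nM, while GANAB over PRKCSH moves by 0.16 and MGAT2 over MGAT1 is scattered.

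The steps beside trimming and branching were read from lists of related genes at 500 nM, each beside the 10.1% of all tested genes that fell and the 7.69% that rose. In the calnexin cycle and among the lectins of the secretory pathway, 7 of 10 genes fell and 0 rose, with a median of -0.28. CANX, the gene of calnexin, did not pass (log2 fold change -0.09, limma adjusted p = 0.241). It had 20042 ± 76.6 normalized counts in DMSO and 18849 ± 184.5 at 500 nM. CALR, the soluble ER lectin calreticulin, had a mean of 20155 ± 434 normalized counts in DMSO and 11181 ± 371 at 500 nM (log2 fold change -0.85, limma adjusted p = 5.17e-10). MLEC, the lectin malectin that binds glucosylated glycans, went from 5594 ± 172 to 3854 ± 122 (-0.54, limma adjusted p = 2.31e-07). Among the other mannosidases 4 of the 5 tested genes fell and 0 rose, and MAN1C1 was below the filter. EDEM3, which trims mannose from glycoproteins bound for degradation, went from 1436 ± 43.7 to 726 ± 56.3 (-0.99, limma adjusted p = 2.87e-08). Its relative EDEM1 went from 1569 ± 51.4 to 1066 ± 53.7 (-0.56, limma adjusted p = 4.55e-06).

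Of 7 genes for later branches and core fucose, 5 were tested and 1 fell, and MGAT3 and MGAT4C were below the filter. MGAT5, which builds the branch that carries long lactosamine chains, went from 1308 ± 34.3 to 1057 ± 82.3 (-0.31, limma adjusted p = 0.0253). This call was lost when DMSO replicate 1, DMSO replicate 2, 500 nM replicate 2 or 500 nM replicate 3 was left out (limma adjusted p from 0.0649 to 0.124). For the supply of UDP-GlcNAc, the sugar donor of the branching enzymes, 1 of 6 genes fell and 0 rose. That gene was GFPT1, an enzyme gene of the hexosamine pathway, with 1296 ± 27.8 in DMSO and 961 ± 41.3 at 500 nM (-0.43, limma adjusted p = 7.93e-06). GFPT2 of the same list had 2596 ± 50.9 in DMSO and 2432 ± 65.4 at 500 nM and did not pass (-0.09, limma adjusted p = 0.201).

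In 2 lists the genes that passed were higher. Of 5 genes for glucosylation of the lipid-linked precursor, which adds the glucose residues that glucosidases I and II later remove, 2 rose and 0 fell. ALG8, ALG10 and ALG10B did not pass. ALG5, which makes the glucose donor, went from 422 ± 36.5 to 559 ± 58.0 (0.40, limma adjusted p = 0.00155). ALG6, the glucosyltransferase for the first glucose, went from 363 ± 8.07 to 442 ± 37.4 (0.28, limma adjusted p = 0.0241), and leaving out DMSO replicate 2, DMSO replicate 3 or the second 500 nM dish ended this call (limma adjusted p from 0.0703 to 0.137).

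**Figure D4:**
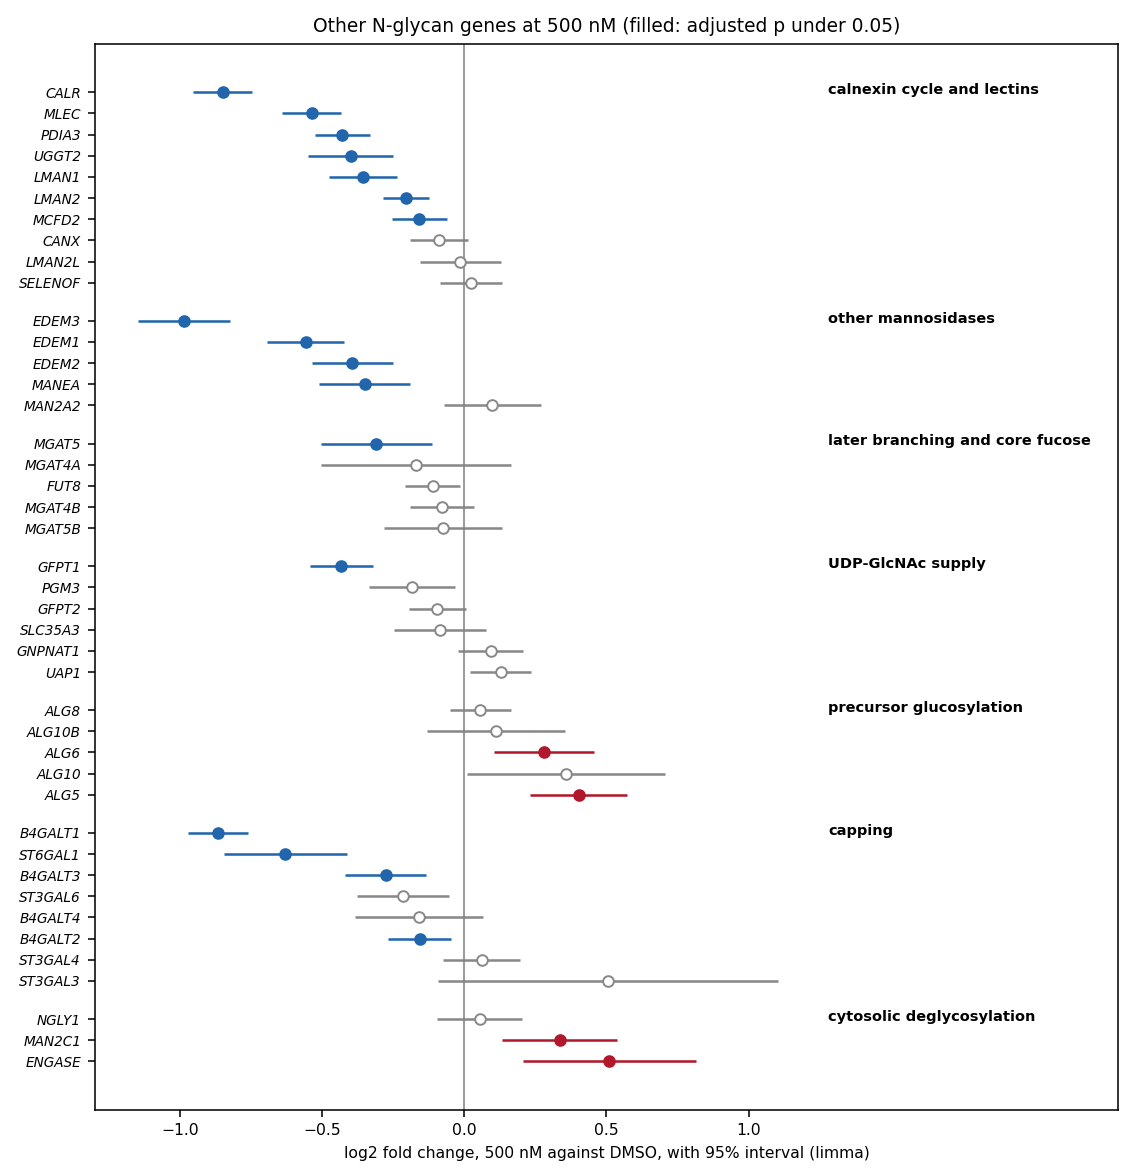
Log2 fold change at 500 nM against DMSO (x axis) with 95% intervals from limma for the tested genes of 7 lists of N-glycan genes (y axis). Filled circles passed an adjusted p of 0.05, in blue where lower and in red where higher. The calnexin cycle and mannosidase lists hold 7 of 10 and 4 of 5 genes that fell, and the 2 lists with higher genes are precursor glucosylation and cytosolic deglycosylation.

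Profiles were also compared across all genes. By Pearson's r of the log2 values over the 15 libraries, which share the dose series, the genes most like MOGS were TPBG (r = 0.99), PDIA6 (r = 0.99) and TXNDC15 (r = 0.99). TPBG, a membrane glycoprotein, had a mean of 2080 in DMSO and 991 at 500 nM. PDIA6, a protein disulfide isomerase of the ER, went from 2332 to 1674. TXNDC15, a thioredoxin-domain protein, had 871 in DMSO and 499 at 500 nM. No gene of the group rose past the threshold, so no such comparison was made for a rise.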

How the data were processed

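RNA of MDA-MB-231 cells was analysed in 15 libraries, 3 dishes in each of 5 groups. The authors made the deposited signal values: they selected poly-A RNA, mapped paired reads of 150 bp with HISAT2 on hg38, obtained a count per gene from htseq-count and scaled each library by its DESeq2 size factor. Tool versions, strandedness and the number of the annotation release are not given in the sources used here. The deposited table holds 59608 genes, and 1 line with doses and no gene was left out. Dividing by each library's smallest step turned 100.0% of the values into whole reads within a tolerance of 0.001, and size factors of 0.916 to 1.13. Depth was 12415519 to 15284762 reads on genes (median 13320354), of which mitochondrial genes took 0.889% to 2.06%. The chi-square statistic between replicates of a group, divided by its degrees of freedom, was 2.04 to 16.6. A value of 1 is sampling noise, so no pair differed by sampling noise alone. This cannot tell separate dishes from libraries prepared from 1 dish.

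Because the values are not counts, the main test was limma with a mean-variance trend, on log2(normalized count + 1), over 13561 genes whose mean reached 10 or more. All 5 groups shared 1 fit (10 residual degrees of freedom), with Benjamini-Hochberg adjustment over all tested genes and a threshold of 0.05. Fold changes are on this scale and understate the change of low genes. The slope was fitted separately. Ratios were compared with a two-sided exact permutation test. The scripts were tested on simulated data. The members and lists were chosen with earlier results of these data known. The text names the 10 genes of the group, and up to 2 rises and 2 falls past the threshold at 500 nM in each list. Some list genes that did not pass or were not tested are named as well. Profiles are given for the 3 genes most like the gene of the group with the smallest p in each direction. Positions, lengths and overlaps are from GENCODE release 44 on hg38, and 93.2% of tested genes had a length. With minimap2 2.31-r1302, a copy is a match on any of 261 alternate contigs that covers 90% or more of a transcript at 99% identity or more, and a near-identical gene covers at least 50% with at least 95% identity.

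Alternatives were pseudocounts of 0.5 and 5, no filter or a minimum mean of 50, a block for the replicate number, TMM scaling, DESeq2 or the quasi-likelihood test of edgeR on recovered reads, leaving out each library, a threshold of 0.1 on the adjusted p, the 6 libraries of a dose and DMSO, and the slope over the 12 treated libraries. Versions were Python 3.11.15, DESeq2 1.42.0, limma 3.58.1, R 4.3.3 and edgeR 4.0.16.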

Additional observations from a re-analysis of the deposited data

How the results depend on the processing

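Over 26 settings and 2262 pairs of a gene and a setting, 2192 kept their side of the threshold, 51 lost a call, 19 gained one and 0 reversed. Of the 2192, 29 changed sign, each without a call. MOGS, MAN1A1, MAN1B1 and MGAT1 kept their falls at 500 nM under all 25 alternatives. MGAT2 gave no value with a mean of at least 50. TMM moved the median of all genes by at most 0.00824. Leaving out 1 library gave 0 to 0 called genes of the group at 0.5 nM, 2 to 3 at 5 nM, 4 to 6 at 50 nM, 4 to 7 at 500 nM, 5 to 7 for the slope, 0 to 2 from 0.5 to 5 nM, 3 to 6 from 5 to 50 nM and 0 to 1 from 50 to 500 nM. Over all genes this gave 19 to 391 calls at 0.5 nM (159 with all libraries), 113 to 623 at 5 nM (295), 560 to 1276 at 50 nM (814), 1795 to 3097 at 500 nM (2409), 7 to 25 from 0.5 to 5 nM (16), 424 to 1129 from 5 to 50 nM (679) and 139 to 630 from 50 to 500 nM (309). The highest counts came without 0.5 nM replicate 2, except that at 0.5 nM itself, which came without its replicate 3. With only the 6 libraries of the dose and DMSO, 21 genes were called at 0.5 nM and 846 at 5 nM. With an adjusted p under 0.1 there were 285 at 0.5 nM, 497 at 5 nM and 473 from 50 to 500 nM, and DESeq2 called 29 from 0.5 to 5 nM. The settings differ in samples, threshold or test, and the cause of these shifts was not tested.

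The replicate numbers did not pair the dishes: of 30 same-numbered pairs, 0 had a correlation of deviations over 0.1 (range -0.0855 to 0.0961), and 7 of 15 libraries were closest to their own number. With the replicate number as a block, 0, 3, 5 and 6 genes of the group were called from the lowest to the highest dose, 6 for the slope and 2, 3 and 1 in the steps, and 2506 of all genes at 500 nM. Few reads limit MGAT2, for a reason that was not tested, and groups of 3 limit the ratios.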

Other observations

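Steps after branching and in the cytosol were read from 2 further lists at 500 nM, beside the 10.1% of all tested genes that fell and the 7.69% that rose. Of 8 genes that cap the branches with galactose and sialic acid, 4 fell and 0 rose. B4GALT1, which adds galactose to GlcNAc and which the study also singled out in this experiment, had a mean of 2698 ± 81.5 normalized counts in DMSO and 1480 ± 47.4 at 500 nM (SD, n = 3 per group, log2 fold change -0.87, limma adjusted p = 6.48e-10). ST6GAL1, a sialyltransferase of N-glycans, had 473 ± 27.9 and 305 ± 6.79 (-0.63, limma adjusted p = 0.000222). Of 3 genes that take N-glycans apart in the cytosol, 2 rose and 0 fell. ENGASE, an endoglycosidase, had 175 ± 41.9 in DMSO and 245 ± 10.9 at 500 nM (0.51, limma adjusted p = 0.0183), and the call was lost when DMSO replicate 1, DMSO replicate 2, 500 nM replicate 2 or 500 nM replicate 3 was left out (limma adjusted p from 0.0529 to 0.129). MAN2C1, the cytosolic mannosidase, had 243 ± 19.7 and 309 ± 47.9 (0.33, limma adjusted p = 0.0196), and its call was lost when replicate 1 or 2 of DMSO or replicate 2 of 500 nM was left out (limma adjusted p from 0.0734 to 0.136).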
